A study of Homo sapiens with 6 samples.

Results

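The mRNAs of 10 BCL2 family genes were compared between A-375 cells carrying a control guide and A-375 cells carrying a guide against SEPHS2. A-375 is an established human melanoma line. The members were taken by symbol from a table of 21631 genes and fall into 3 roles: 4 guardians (BCL2, BCL2L1, MCL1 and BCL2A1), 2 effectors (BAX and BAK1) and 4 BH3-only genes (BCL2L11, BBC3, PMAIP1 and BMF). All 10 were in the table and all 10 passed the filter on low counts. The libraries are titled sgCTRL (3 libraries) and sgSEPHS2 (3 libraries), and both groups therefore carry a guide RNA. The labels leave unsaid whether the sgSEPHS2 cells are a pool or 1 clone, how long after guide delivery they were collected, and whether replicates were separate cultures. The p-values thus cover spread among these 6 samples alone, and that spread may be technical.

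BCL2 family proteins decide whether the outer mitochondrial membrane stays closed during apoptosis. The effectors BAX and BAK1 form pores that release cytochrome c, the guardians bind and restrain them, and the BH3-only proteins, which are induced or activated by stress, bind guardians or activate effectors. Melanoma cells are known to lean on MCL1 and, where MITF is high, on BCL2A1. Much of this control acts on the proteins, and several members are spliced into forms with opposite roles, which gene counts do not separate.

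Depth was 34606145 to 43405579 counted reads per library. Levels are given as CPM, counts scaled to a common library size after TMM factors. Fold changes have the libraries labelled knockout above the line and the control libraries below it. SEPHS2 mRNA itself was not lower in the libraries labelled knockout (log2 fold change 0.15, edgeR adjusted p = 0.00401), and directions below rest on the labels. Of 10 melanocyte lineage markers, SOX10 and CSPG4 were abundant, at 619 ± 15.6 and 485 ± 20.3 CPM in the control group (SD, n = 3), while TYR had 0 reads over the control group and DCT 13. The summed level of that list was 1130 to 1190 CPM in the control libraries and 925 to 948 CPM in the others. Of its 7 tested markers, CSPG4 (log2 fold change -0.64), MITF (-0.35) and SOX10 (-0.12) fell and 4 did not pass. The summed level was 3.49 to 4.51 against 6.66 to 7.20 CPM for 5 of 6 immune markers found in the table, of which LYZ rose. It was 9.69 to 10.2 against 8.08 to 9.15 CPM for 5 of 5 endothelial markers, of which TEK fell. It was 67.5 to 68.9 against 44.6 to 51.1 CPM for 5 of 5 fibroblast markers, where PDGFRB fell and LUM rose, and 0.356 to 0.678 against 1.32 to 2.05 CPM for 2 of 5 keratinocyte markers, where KRT14 rose. PTPRC, which defines white blood cells, had 16 reads over the control group and 1 over the other. The part of these markers in the results was not tested. In bulk RNA, fewer cells of a type and less RNA per cell cannot be told apart.

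Both effectors rose, the guardians split into 2 higher and 2 lower, and no BH3-only gene rose while 2 of 4 fell. In all, 8 of the 10 mRNAs passed edgeR's quasi-likelihood test at a Benjamini-Hochberg adjusted p under 0.05, 4 higher and 4 lower. Over the 16910 genes tested, 45.4% passed, 22.0% higher and 23.4% lower. Among genes averaging 5 CPM or more 53.6% passed, and 7 of the 9 members at that level did. The groups did not overlap in CPM for 7 of 10 members and for 52.1% of all genes tested. The median log2 fold change was 0.0014 over the members and 0.0052 over all genes tested, a value that scaling sets near 0. Without MCL1, whose counts are uncertain as described below, the calls were 4 higher and 3 lower of 9.

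**Figure D1:**
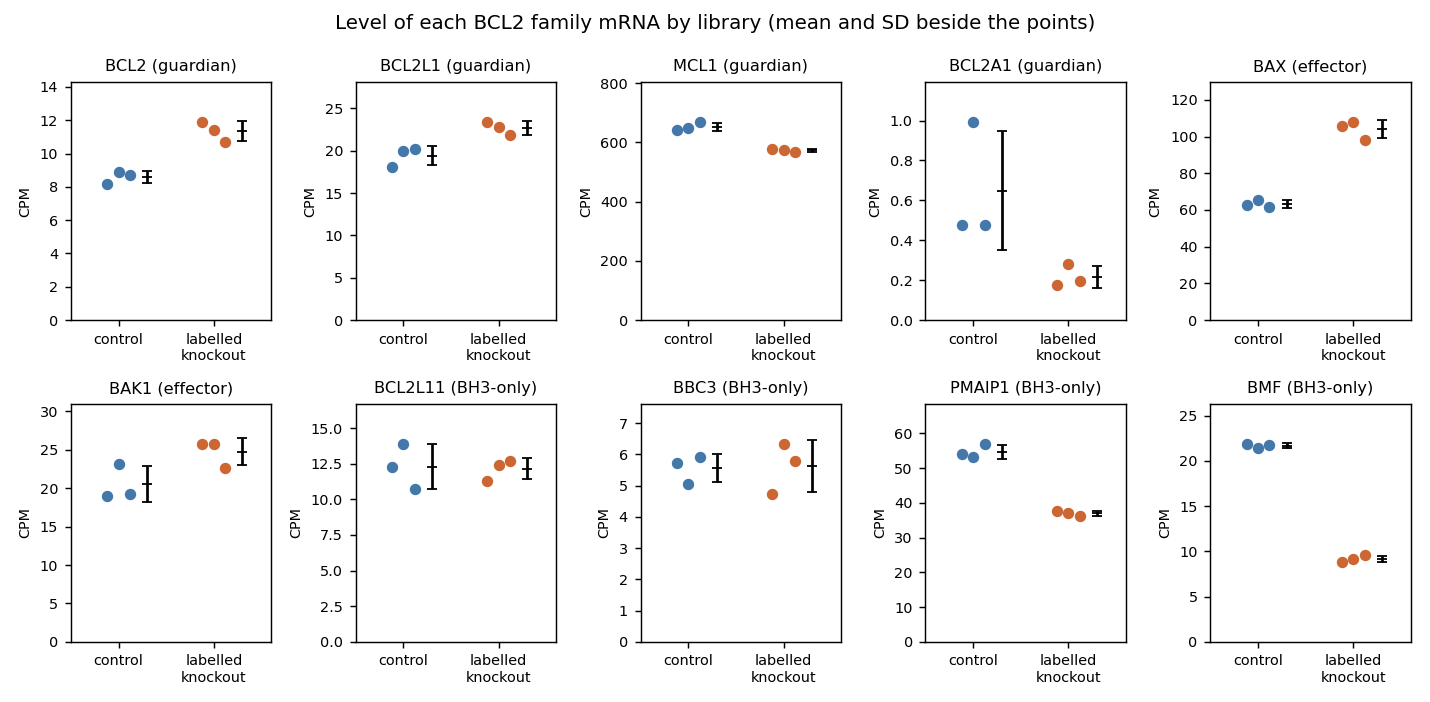
Level in CPM (y axis, from 0, a separate scale per gene) of each of the 10 mRNAs in the 3 control libraries (blue) and the 3 libraries labelled knockout (orange), with the mean and SD as a bar to the right. BAX, PMAIP1 and BMF show wide gaps between the groups, and those of BAK1, BCL2L11 and BBC3 overlap.

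Both effectors rose, and BAX rose more than any other member. BAX (chromosome 19, 48954815 to 48961798, plus strand, GENCODE 29 on GRCh38, as for every position of a member given here) had 62.5, 65.7 and 61.7 CPM in the control libraries and 106, 108 and 98.3 CPM in the libraries labelled knockout. The lowest library labelled knockout stood well above the highest control. BAX rose from 63.3 ± 2.12 to 104 ± 5.12 CPM (SD, n = 3), a fold change of 1.64 (95% interval 1.54 to 1.76, edgeR adjusted p = 8.62e-11). A lower log2 fold change than that of BAX was found for 96.7% of the genes tested. BAK1 (chromosome 6, 33572547 to 33580293, minus strand), the other pore former, had 19.0, 23.2 and 19.3 CPM in the control libraries and 25.8, 25.8 and 22.7 CPM in the others. The groups overlapped, because control replicate 2 lay above knockout replicate 3. BAK1 still passed, with a log2 fold change of 0.27 (95% interval 0.11 to 0.43, edgeR adjusted p = 0.00535). Within each library BAX had 3.29, 2.83 and 3.19 reads for each BAK1 read in the control group and 4.11, 4.18 and 4.33 in the other, with no overlap.

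The stretch before the BAX start site is shown because BAX changed most among the mRNAs that rose. It comes from the RefSeq promoter table (GRCh38.p14), 5′ to 3′, and ends before the first annotated transcript start. Capitals mark the E-box CACGTG, the same on both strands, which many helix-loop-helix factors can bind.
BAX, chr19:48954625-48954814, plus strand: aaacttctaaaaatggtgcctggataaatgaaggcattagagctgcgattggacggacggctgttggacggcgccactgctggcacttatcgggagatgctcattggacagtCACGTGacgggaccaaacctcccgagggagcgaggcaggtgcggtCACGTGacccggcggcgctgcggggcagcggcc
The full window of 250 bases before and 50 after the start held CACGTG 4 times. Of 35116 promoter windows of that length, 7.26% held it at least once, and among the members BAX and BBC3 did. A match in letters is a description and not a binding site.

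Guardians moved in opposite directions. BCL2 (chromosome 18, 63123346 to 63320128, minus strand), the founding guardian, had 8.19, 8.89 and 8.72 CPM in the control libraries and 11.9, 11.4 and 10.7 CPM in the libraries labelled knockout. All libraries labelled knockout lay above all controls. BCL2 rose by 0.40 on the log2 scale (95% interval 0.21 to 0.58, edgeR adjusted p = 0.000872). BCL2L1 (chromosome 20, 31664452 to 31723989, minus strand), whose long form is the guardian BCL-XL and whose short form promotes death, had 18.1, 20.0 and 20.2 CPM against 23.4, 22.8 and 21.8 CPM. The groups did not overlap, with control replicate 1 the lowest library. BCL2L1 rose 1.17-fold (95% interval 1.06 to 1.28, edgeR adjusted p = 0.00694). Leaving out control replicate 1 ended that call (log2 fold change 0.17, adjusted p = 0.0571).

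MCL1 and BCL2A1 were the guardians that fell. MCL1 (chromosome 1, 150574551 to 150579738, minus strand) encodes a short-lived guardian. Its row held 643, 647 and 669 CPM in the control libraries and 578, 575 and 567 CPM in the others. No library of one group reached the range of the other. The fall was small in size and larger than the spread between libraries, from 653 ± 13.7 to 574 ± 5.41 CPM (SD, n = 3), a fold change of 0.879 (95% interval 0.830 to 0.930, edgeR adjusted p = 0.000522). The table gives ADAMTSL4-AS1, a noncoding gene that meets the end of MCL1 on the same strand, the identical counts in all 6 libraries. The 2 rows are thus 1 measurement, and it cannot be told apart here whether its reads belong to MCL1 alone.

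BCL2A1 (chromosome 15, 79960889 to 79971446, minus strand), a guardian known as a target of NF-kB and MITF, had few reads. The control libraries held 20, 41 and 19 of its reads, the libraries labelled knockout 6, 12 and 8. On the CPM scale that is 0.474, 0.993 and 0.476 against 0.176, 0.279 and 0.197, with control replicate 2 about as far above the other controls as those lay above 0. BCL2A1 had 0.342 times the control level (95% interval 0.179 to 0.654, edgeR adjusted p = 0.0075), and the call was lost without control replicate 2 (log2 fold change -1.10, adjusted p = 0.102). MITF mRNA was lower, at 23.5 ± 1.30 against 18.5 ± 0.668 CPM (SD, n = 3, log2 fold change -0.35, edgeR adjusted p = 1.24e-04). Of the NF-kB subunits, RELA was lower (-0.17, edgeR adjusted p = 0.00443) and NFKB1 did not pass (-0.07, adjusted p = 0.193). The part of these regulators in the BCL2A1 result was not tested.

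Among BH3-only genes, BMF and PMAIP1 fell and the other two did not pass. BMF (chromosome 15, 40087890 to 40108892, minus strand) encodes a sensor associated with the cytoskeleton and loss of attachment. It had 21.9, 21.4 and 21.8 CPM in the control libraries and 8.87, 9.10 and 9.55 CPM in the libraries labelled knockout. Both groups were tight and lay far apart. BMF fell from 21.7 ± 0.261 to 9.17 ± 0.343 CPM (SD, n = 3), to 0.424 times the control level (95% interval 0.383 to 0.469, edgeR adjusted p = 7.31e-12). A lower log2 fold change than that of BMF was found for 4.48% of the genes tested. PMAIP1 (NOXA, chromosome 18, 59899948 to 59904306, plus strand), which binds MCL1 and BCL2A1 and speeds MCL1 degradation, had 53.9, 53.2 and 57.0 CPM against 37.5, 37.1 and 36.2 CPM. It was again separated, with a spread in the libraries labelled knockout of 0.686 CPM (SD, n = 3). PMAIP1 fell to 0.675 times the control level (95% interval 0.628 to 0.725, edgeR adjusted p = 6.81e-09).

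BCL2L11 (BIM, chromosome 2, 111119378 to 111168447, plus strand), which binds every guardian and can activate BAX and BAK1 directly, had 12.3, 13.9 and 10.7 CPM in the control libraries and 11.3, 12.4 and 12.7 CPM in the others. The groups overlapped throughout. The fold change was 0.988 (95% interval 0.864 to 1.13, edgeR adjusted p = 0.899), so that interval leaves room for a modest move in either direction. BBC3 (PUMA, chromosome 19, 47220822 to 47232766, minus strand), a main mediator of death downstream of p53, had 5.72, 5.06 and 5.91 CPM against 4.72, 6.34 and 5.80 CPM. The libraries labelled knockout held both the lowest and the highest value. Its fold change was 1.01 (95% interval 0.845 to 1.22, edgeR adjusted p = 0.915). BCL2L11 overlaps MIR4435-2HG on the opposite strand, which had 2005 reads over the control group and 2029 over the other. The strand setting of the counting is not given, so reads in the overlap cannot be assigned.

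The stretches before the start sites of the BH3-only genes that fell, and of BCL2L11 as one that did not pass, are shown for comparison. The BCL2L11 stretch lies inside the gene span given above, which starts at 111119378, while those of BMF and PMAIP1 lie outside theirs. They are RefSeq sequences (GRCh38.p14) 5′ to 3′, each ending before the first annotated transcript start in the window. BMF has 2 windows, of which the outer is shown, and the inner held none of the motifs searched. Capitals mark the SP1 motif GGGCGG on either strand (CCGCCC) and, in BCL2L11, also the FOXO motif GTAAACA.
BMF, chr15:40108893-40109129, minus strand: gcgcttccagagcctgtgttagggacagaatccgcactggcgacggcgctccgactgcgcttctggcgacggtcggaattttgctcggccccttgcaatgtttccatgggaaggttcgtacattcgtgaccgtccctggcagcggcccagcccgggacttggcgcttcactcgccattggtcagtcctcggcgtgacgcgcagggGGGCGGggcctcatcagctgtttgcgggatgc
PMAIP1, chr18:59899746-59899947, plus strand: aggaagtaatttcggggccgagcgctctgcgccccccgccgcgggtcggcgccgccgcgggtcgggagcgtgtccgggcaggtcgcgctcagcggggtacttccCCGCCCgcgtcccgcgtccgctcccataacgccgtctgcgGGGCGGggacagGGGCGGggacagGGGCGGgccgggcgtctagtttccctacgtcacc
BCL2L11, chr2:111120664-111120913, plus strand: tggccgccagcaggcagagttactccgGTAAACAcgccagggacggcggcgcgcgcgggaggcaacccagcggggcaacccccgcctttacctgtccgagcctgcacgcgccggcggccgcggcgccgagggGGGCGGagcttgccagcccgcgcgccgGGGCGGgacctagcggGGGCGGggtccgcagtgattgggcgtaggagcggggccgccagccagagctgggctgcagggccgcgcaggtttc
GGGCGG was found in 45% of all windows and in 6 of the 11 windows available for 9 members. GTAAACA was in 3.42% of all windows and, among the members, in that of BCL2L11. Of the other motifs searched on both strands, TGATGNAA (3.62% of windows) was in the BCL2A1 window, TGANTCA (7.71%) in that of BBC3, the NF-kB motif (5.91%) in one of BMF and the p53 half-site (6.63%) in that of BAK1. TGACGTCA (1.85%), TTTCCCGC (1.63%) and TTTGGCGC (0.652%) were in no member's window. Matches of different motifs may overlap.

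**Figure D2:**
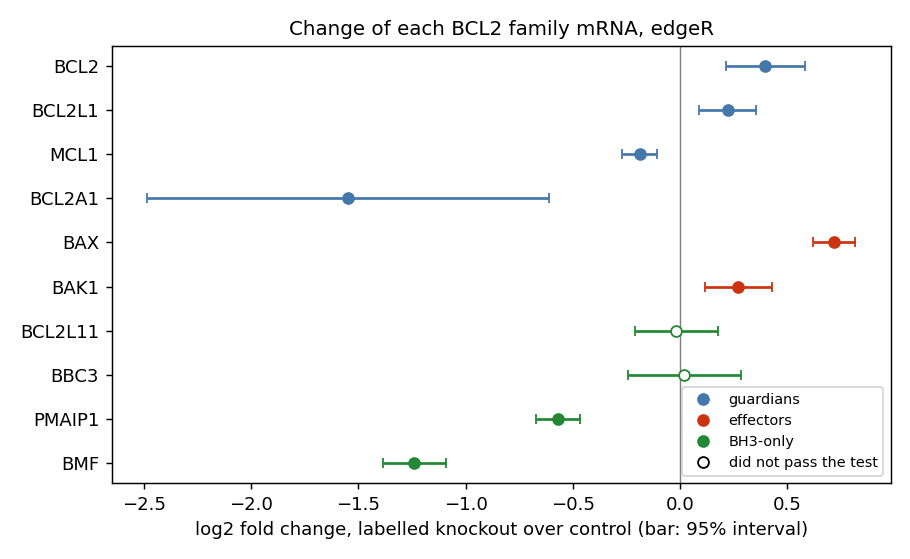
Log2 fold change (x axis) of each mRNA, the libraries labelled knockout over control, with 95% intervals from edgeR as bars and colour for role. Both effectors lie to the right of 0, BMF and PMAIP1 lie to the left, and the open points of BCL2L11 and BBC3 sit on it.

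To set roles against each other, CPM was divided by exon length in kb (all GENCODE 29 transcripts), and the level per length was summed within each role. These sums describe the chosen members, and no test was made on them. The guardian sum was 154, 156 and 160 CPM per kb in the control libraries and 140, 140 and 138 in the libraries labelled knockout, and MCL1 made up 95.4% ± 0.334 of it in the control group (SD, n = 3). The effector sum was 32.8, 35.9 and 32.6 CPM per kb against 52.8, 53.3 and 48.2. The BH3-only sum was 31.8, 31.4 and 33.0 CPM per kb against 21.6, 22.1 and 21.7. The groups stood apart for every role. Effectors and BH3-only mRNAs were nearly level in the control group and lay well apart in the other. That near equality depends on length: with exon length from the basic transcript set, the control sums were 54.1 ± 2.52 CPM per kb for effectors and 35.2 ± 0.906 for BH3-only genes (SD, n = 3).

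The order of single members per length was not the same in both groups. In the control group MCL1 stood first at 149 ± 3.14 CPM per kb, followed by PMAIP1 at 24.5 ± 0.896 and BAX at 24.5 ± 0.819, which did not differ beyond their spread (SD, n = 3). BAK1 came next at 9.27 ± 1.04 CPM per kb, then BCL2L1 at 5.86 ± 0.350 and BMF at 3.98 ± 0.0480. BCL2L11 and BBC3, at 1.85 ± 0.246 and 1.75 ± 0.140 CPM per kb, were within each other's spread, as were BCL2 and BCL2A1 at the bottom, at 0.731 ± 0.0311 and 0.595 ± 0.275. In the libraries labelled knockout BAX stood at 40.3 ± 1.98 CPM per kb, far above PMAIP1 at 16.5 ± 0.307. BMF had come down to 1.68 ± 0.0630 CPM per kb, where its libraries overlapped those of BCL2L11 at 1.82 ± 0.107 and BBC3 at 1.77 ± 0.260. The close neighbours in this order depend on the exon length. With length from the basic transcript set, BAX had 44.3, 46.5 and 43.7 CPM per kb in the control libraries, well above PMAIP1 at 25.7, 25.4 and 27.2. On that length control BBC3, at 2.66 ± 0.213 CPM per kb, lay above BCL2L11 at 2.02 ± 0.269 with no overlap. In the libraries labelled knockout BMF, at 1.87 ± 0.0699 CPM per kb, then overlapped BCL2L11 at 1.99 ± 0.117 but not BBC3 at 2.68 ± 0.395 (SD, n = 3).

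As a share of all 10 mRNAs per length, guardians went from 70.4% ± 0.573 to 65.5% ± 0.689, effectors from 15.2% ± 0.839 to 24.2% ± 0.820 and BH3-only genes from 14.4% ± 0.282 to 10.3% ± 0.194 (SD, n = 3). The guardian share rests on the MCL1 row. Guardians without MCL1 summed to 6.59, 7.70 and 7.26 CPM per kb in the control libraries and 8.23, 8.10 and 7.67 in the others, so that sum pointed the other way and its groups overlapped.

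Ratios of reads within a library do not depend on how libraries are scaled. They restate the changes of single members given above and are no separate support for them. No test was made on these ratios. There were 10.3, 9.85 and 10.8 MCL1 reads for each BAX read in the control libraries and 5.44, 5.34 and 5.77 in the libraries labelled knockout. BAX against BCL2, the classical pair, was 7.64, 7.39 and 7.07 against 8.92, 9.46 and 9.20. The rise of BCL2 took up part of the rise of BAX in that pair, and the groups still did not overlap. PMAIP1 against BAX went from 0.865 ± 0.0570 to 0.355 ± 0.0122, and MCL1 against its partner PMAIP1 from 11.9 ± 0.211 to 15.5 ± 0.145 (SD, n = 3). BMF against BCL2L11 was 1.78, 1.53 and 2.04 in the control libraries and 0.783, 0.731 and 0.754 in the others.

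**Figure D3:**
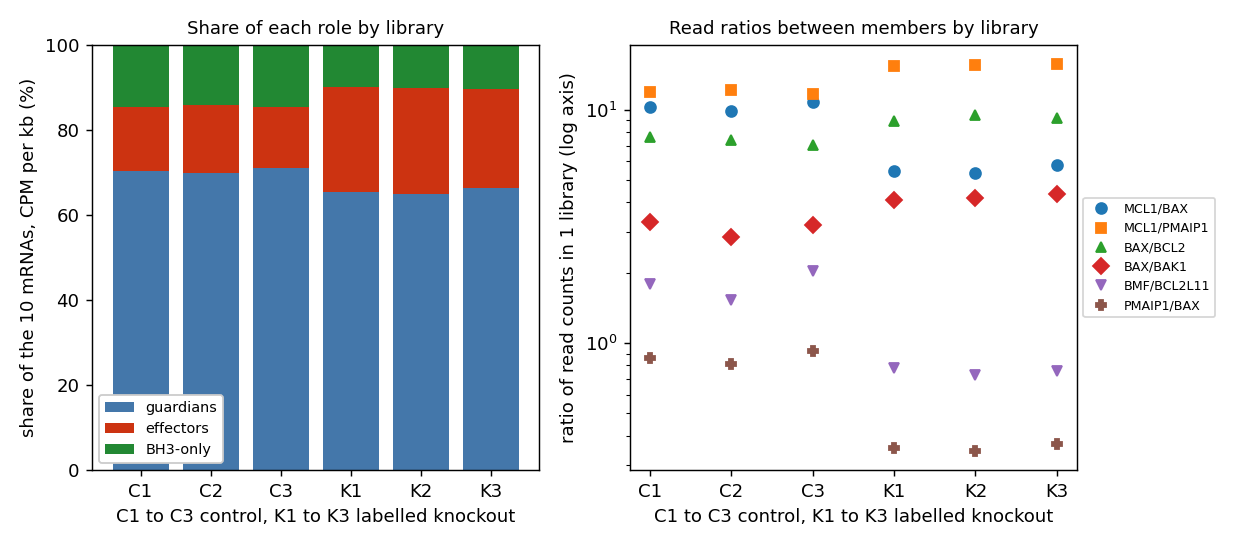
Left, share (%) of the summed level per length of the 10 mRNAs held by each role in each library (C1 to C3 control, K1 to K3 labelled knockout). Right, ratios of read counts between members within each library on a log axis, where MCL1/BAX drops from 9.85 to 10.8 in the control libraries to 5.34 to 5.77 in the others.

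Few genes of the wider family passed. Of 12 tested genes of that list, 1 rose, 1 fell and 10 did not pass, or 16.7% called beside 45.4% of all genes. The guardian BCL2L2 (BCL-W) had 62.8 ± 2.46 and 58.6 ± 0.583 CPM in the 2 groups (log2 fold change -0.10, edgeR adjusted p = 0.0926). BID, which links death receptors to mitochondria when cut by caspase-8, had 24.0 ± 1.49 and 22.2 ± 1.88 CPM. BAD, a BH3-only protein silenced by phosphorylation, had 7.61 ± 0.877 and 8.36 ± 0.321 CPM, and the effector-like BOK 9.22 ± 1.09 and 8.92 ± 0.404 CPM. HRK, BCL2L12, BCL2L13 and BNIP3 did not pass either, with log2 fold changes of 0.12, 0.09, -0.06 and 0.0034. BNIP3L, a mitophagy receptor, fell by 0.15 on the log2 scale (edgeR adjusted p = 0.0159). Its adjusted p was 0.0535 with knockout replicate 1 left out and 0.0899 with knockout replicate 2 left out. BCL2L15, with 32 reads over the control group and 73 over the other, rose (log2 fold change 1.24, edgeR adjusted p = 0.0291). It did not pass (adjusted p = 0.0542 to 0.159) when control replicate 1 or 2, or knockout replicate 1 or 3, was left out.

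In a list of outer membrane channels, proteins released from mitochondria, the apoptosome and caspases, 7 of 14 genes rose and 1 fell. That is 57.1% called, with a median log2 fold change of 0.12. For this and the following lists, the background over all genes tested is 45.4% called, 22.0% higher and 23.4% lower. It is 53.6% called among genes averaging 5 CPM or more. CYCS, cytochrome c itself, had 214, 232 and 233 CPM in the control libraries and 302, 290 and 271 CPM in the others. It rose 1.27-fold (edgeR adjusted p = 3.29e-06). VDAC3, an outer membrane channel, rose by a log2 fold change of 0.50 (95.4 ± 3.38 against 135 ± 5.63 CPM, SD, n = 3, edgeR adjusted p = 9.07e-09). The initiator CASP9, the 1 gene lower in this list, was at -0.25. VDAC1 rose by 0.12 and did not pass with control replicate 1 (edgeR adjusted p = 0.0782) or knockout replicate 3 (0.051) left out. Among 6 inhibitors of apoptosis, 4 fell and 1 rose (83.3% called, median -0.29). BIRC3 (cIAP2), an NF-kB target, had 25.6, 29.6 and 28.3 CPM against 9.81, 9.33 and 10.1 CPM, which is -1.51 on the log2 scale (SE 0.07, edgeR adjusted p = 4.39e-13). BIRC2 and BIRC6 fell by 0.26 and 0.31 on the log2 scale. BIRC5 (survivin), which also acts in mitosis, rose by 0.43 on the log2 scale (64.9 ± 2.59 against 87.2 ± 4.75 CPM, edgeR adjusted p = 4.02e-07), and XIAP, the direct caspase inhibitor, did not pass (0.06, adjusted p = 0.266). BIRC7, the remaining lower gene, had 87 and 40 reads over the groups, and it did not pass (adjusted p = 0.0637 to 0.108) when control replicate 1 or 2, or knockout replicate 2 or 3, was left out.

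Of 11 tested death receptor genes, 2 rose and 4 fell (54.5% called, median log2 fold change -0.22). The receptor FAS rose by 0.38 (20.3 ± 1.75 against 26.4 ± 1.02 CPM, edgeR adjusted p = 7.32e-05), while the TRAIL receptor TNFRSF10B and the TNF receptor TNFRSF1A fell by 0.22 and 0.24 on the log2 scale. RIPK1 did not pass (-0.03, adjusted p = 0.638). CASP8 was the other gene higher, and it did not pass (adjusted p = 0.0949 to 0.15) when control replicate 2 or 3, or knockout replicate 3, was left out. Of 15 genes for transcription factors and regulators that control members, 3 rose and 9 fell (80% called, median -0.20). FOXO1 lies on chromosome 13 and is of a family known to activate BCL2L11 and BBC3. It fell by 1.05 on the log2 scale (15.3 ± 0.508 against 7.36 ± 0.436 CPM, SD, n = 3, edgeR adjusted p = 1.71e-09). E2F1 rose from 19.0 ± 1.38 to 34.4 ± 1.31 CPM (0.86, adjusted p = 3.74e-10), and MDM2, which degrades p53 and is its target, from 115 ± 2.05 to 156 ± 3.87 CPM (0.43, adjusted p = 2.37e-08). STAT3 fell by 0.21, and ATF4 did not pass (0.10, adjusted p = 0.0632). DDIT3 was called higher at adjusted p = 0.0476 and lost that call without any 1 of the 6 libraries except knockout replicate 1. MYC was called lower (-0.35, adjusted p = 0.0286) and did not pass (adjusted p = 0.0546 to 0.172) when any 1 control library or knockout replicate 3 was left out.

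Of 6 genes that set MCL1 protein stability, 1 rose and 2 fell (50% called, median log2 fold change -0.08). HUWE1, a ubiquitin ligase for MCL1, fell from 655 ± 31.4 to 562 ± 50 CPM (-0.22, edgeR adjusted p = 0.00171). USP9X, the enzyme that removes ubiquitin from MCL1, fell from 306 ± 13.3 to 245 ± 9.68 CPM (-0.32, adjusted p = 4.58e-06). FBXW7, a ligase subunit, rose by 0.25 (adjusted p = 0.00362), and MARCHF5 did not pass (-0.05, adjusted p = 0.505). Genes that lower and genes that spare the protein were thus both among those that fell. With any 1 library left out, the calls stayed at 5 to 7 higher and 1 lower in the list of channels, released proteins, apoptosome and caspases. Among inhibitors of apoptosis they stayed at 1 higher and 3 to 4 lower. They were 1 to 2 higher and 4 to 5 lower in the death receptor list, and 2 to 4 higher and 7 to 10 lower among the regulators.

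**Figure D4:**
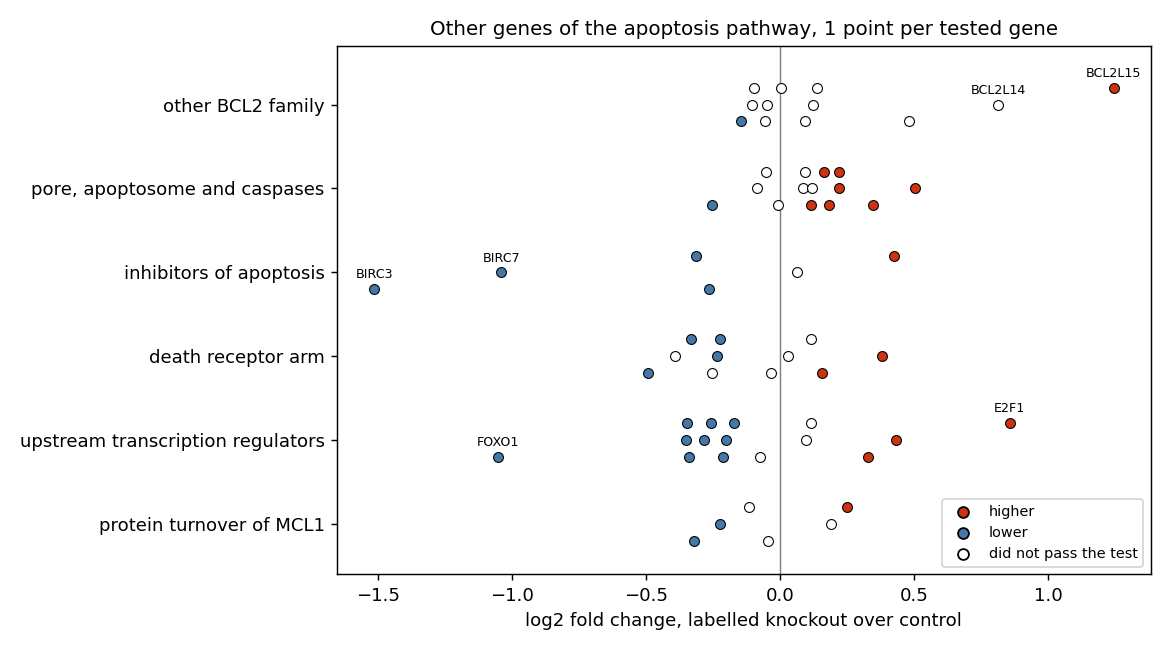
Log2 fold change (x axis), the libraries labelled knockout over control, of each tested gene in the 6 lists around the members, red where higher, blue where lower and white where the test was not passed. The wider BCL2 family sits near 0 apart from low genes, and BIRC3, FOXO1 and E2F1 stand out.

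The nearest tested genes on the chromosome were read beside the members. Of the 20 nearest tested neighbours of the members, 8 were higher, 4 lower and 8 did not pass, beside 22.0% higher and 23.4% lower over all genes tested. FTL, which starts 3.50 kb after BAX and has many pseudogenes that can take its reads, was higher (log2 fold change 1.13, SE 0.06), while NUCB1 on the other side was lower (-0.33). PMAIP1 lies between CCBE1, 202 kb away, which was higher (4.28, SE 0.14), and MC4R, 467 kb away. MC4R averaged 0.25 CPM and did not pass (0.0088, SE 0.49), so its direction is not known. Both neighbours of BMF, SRP14 and BUB1B, were higher (0.18 and 0.29). For BCL2, PHLPP1 was lower (-0.26) and KDSR did not pass (0.03). For these 4 members no neighbour pair was called in the member's direction on both sides. Both neighbours of BCL2L1, ID1 (0.23) and TPX2 (0.44), were higher, as BCL2L1 was. The neighbours of the remaining members enter only the count above. Single nearest genes cannot describe a region, and the part of the region in the results was not tested.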

How the data were processed

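RNA of 6 A-375 libraries was measured by sequencing, 3 titled sgCTRL and 3 titled sgSEPHS2, with groups and replicate numbers from the titles. The deposited table holds read counts by gene symbol, not normalized. The submitters' processing notes name featureCounts 2.0.6, HISAT2 2.2.1, FastQC 0.12.1 and SAMtools, and the build GRCh38. The annotation, the strand setting and the rule for reads mapping to several places are not given there. Rows with identical counts in all libraries were treated as uncertain, which touches MCL1.

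The test used edgeR 4.0.16 in R 4.3.3 with TMM factors, after its default filter with the group, by the two-sided quasi-likelihood test. P-values were adjusted by Benjamini-Hochberg over the 16910 genes tested, with a threshold of 0.05. SEs are the log2 fold change over the root of the F statistic, and 95% intervals use the test's degrees of freedom. Positions and exon lengths came from GENCODE 29 (GRCh38) and promoter sequences from RefSeq. The members and all lists were chosen with earlier results of these data known. Named are all members, the wider family at a mean of at least 1 CPM, and in each other list the 3 most abundant genes and up to 3 called genes by smallest adjusted p, with both nearest tested neighbours of each member where a result turns on them. A gene that this rule names is not reported here. BCL2A1's regulators MITF, RELA and NFKB1, and BCL2L15, BIRC7, CASP8, CASP9, DDIT3 and MYC, were added after their values were seen. Alternatives were RLE and upper-quartile factors, 2 other filters, DESeq2 1.42.0, limma-voom (limma 3.58.1), a replicate block, each library left out, and a threshold of 0.01. Leaving out chromosomes 13 and 18, another exon length and guardians without MCL1 were added after seeing the data. The pairs for the read ratios were not among the results planned. The procedure was tested on simulated data. Far fewer genes were changed there than were called here, so it does not cover scaling under so broad a change. Figures were drawn with matplotlib 3.10.9.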

Additional observations from a re-analysis of the deposited data

How the results depend on the processing

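BCL2, MCL1, BAX, BAK1, PMAIP1 and BMF kept their direction and their call in every alternative that could test them. Log2 fold changes were 0.69 to 0.76 for BAX and -1.27 to -1.22 for BMF. Of these members BAK1 came nearest to losing its call, at an edgeR adjusted p of 0.0452 without control replicate 1. BCL2L1 lost its call without control replicate 1 and BCL2A1 without control replicate 2, and in no other alternative that tested them. BCL2A1 was not tested with at least 1 CPM required in 3 libraries, nor BCL2 and PMAIP1 without chromosomes 13 and 18. The members that did not pass had no stable sign. With 1 library left out, BCL2L11 ranged from -0.112 to 0.083 and BBC3 from -0.076 to 0.127. The sign turned for BCL2L11 without control replicate 2 (0.083) or knockout replicate 1 (0.028), and for BBC3 without control replicate 2 (-0.044) or knockout replicate 2 (-0.076). Of the members tested, 7 of 10 were called without control replicate 1 or 2. With at least 1 CPM required in 3 libraries 7 of 9 were called, and 6 of 8 without chromosomes 13 and 18. In the remaining alternatives 8 of 10 were called. Over all genes 5863 to 7774 were called, the lowest at an adjusted p under 0.01. With the replicate block, 8 members and 7774 genes were called, against 7673 without it. The replicate numbers were not taken as pairs, since the titles do not say that they mark a shared culture or day. Deviations of same-numbered libraries from their group means had r = 0.10, 0.04 and 0.13, and not every library correlated best with its own number. Centring on means of 3 libraries ties these values together, so they cannot decide whether the libraries were paired. The guardian sum had a log2 ratio of -0.17, and 0.16 without MCL1, by construction of the sum. Scaling by RLE or upper-quartile factors moved all genes by -0.0062 and -0.0064 in the median. Depth limits BCL2A1, with 26 reads over the libraries labelled knockout.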
